A study of Mus musculus with 12 samples.

Results

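The small-subunit assembly factors are the proteins that build the 40S ribosomal subunit around 18S ribosomal RNA. They were chosen by name, as 35 gene symbols looked up in the authors' complete expression tables for Ddx27-knockout (KO) and wild-type (WT) C2C12 cells. Of the 35 symbols, 34 were listed in both tables, among 12590 genes listed in both and 13768 genes listed in all. The remaining symbol, Utp4, was not listed under that name. The tables list its gene under the older symbol Cirh1a, and its values are given beside the 34. It is in no count of members, but is 1 of the 42 other small-subunit assembly genes described further on. All 34 members passed the filter on low values in every comparison below.

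Ribosome assembly starts in the nucleolus on a long precursor RNA that is cut into 18S, 5.8S and 28S ribosomal RNA. The small-subunit processome forms on its leading part: the UtpA proteins bind first, the UtpB proteins and the U3 small nucleolar RNA with its proteins follow, and the Mpp10 complex, helicases and GTPases fold and release the 18S precursor. Late factors then take the 40S precursor through export to the cytoplasm and its last cuts. Ddx27 itself is a DEAD-box helicase of the nucleolus with a known role in ribosomal RNA processing, and dividing myoblasts are a cell type with high demand for ribosomes.

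All groups came from C2C12, an established mouse myoblast line: RNA from purified polysomes and total RNA of Ddx27-/- cells, and the same kinds of RNA of wild-type cells. Values were analysed for 3 KO polysomal, 2 KO total, 3 WT polysomal and 3 WT total libraries, 11 of the 12 samples listed. The labels name no clone, no drug and no selection of RNA, and do not say which samples, if any, were separate cultures. The p-values therefore measure only the spread between these samples, which may be technical. Levels are normalised reads: the authors' scaled read counts, put on 1 scale across both genotypes. Each library is set against its own total, so in these bulk samples fewer cells of a type and less RNA per cell cannot be told apart.

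Reads per library ran between 13683674 and 27347878, and a member had 236 to 6918 reads in a library. The targeted gene Ddx27 had 54.3, 42.6 and 31.6 normalised reads in KO polysomal and 41.9 and 47.5 in KO total libraries, against 200.1, 142 and 203 in WT polysomal and 145, 139 and 136 in WT total libraries. It was lower in KO by a log2 fold change of -2.08 ± 0.22 (SE, adjusted p = 0.000194) in polysomal and -1.63 ± 0.24 (SE, adjusted p = 0.00187) in total RNA, and reads remained in every KO library. Of 6 myoblast markers, 5 were listed in both tables. Their summed level was 479 to 544 in KO polysomal and 1088 to 1271 in KO total libraries, against 838 to 1068 in WT polysomal and 2820 to 3914 in WT total libraries. Among them Myod1, a defining myoblast transcription factor, was nearly absent from KO cells, at 0 to 0.0869 in polysomal and 0.383 to 1.20 in total libraries, against 65.6 to 97.9 in WT polysomal and 132 to 173 in WT total libraries. Des, Cdh15 and Itga7 were also lower in every KO library than in the WT libraries of the same RNA. Myf5, another myoblast transcription factor, lay the other way in total RNA, at 113 to 129 in KO against 56.0 to 68.2 in WT, and overlapped in polysomal RNA, at 73.7 to 116 in KO and 52.9 to 90.6 in WT. Markers of terminal muscle differentiation (6 of 6 in both tables) summed to 10.3 to 19.3 in KO polysomal and 147 to 164 in KO total libraries, against 17.9 to 30.2 in WT polysomal and 283 to 748 in WT total libraries. Of the markers of other cell types, 0 of 3 endothelial, 0 of 3 epithelial, 0 of 3 adipocyte, 1 of 3 leukocyte and 2 of 4 fibroblast genes were listed in both tables. The 4 gene models known to collect reads of ribosomal RNA (Gm26924, mmu-mir-6236, Lars2 and Gm26917) took 22.9%, 32.4% and 0.381% of the reads of KO polysomal libraries 1 to 3, 5.85%, 14.4% and 0.665% of those of WT polysomal libraries 1 to 3, and at most 0.146% of any total library. The part of these differences in the results below was not tested, beyond the fits that leave libraries out.

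Per kilobase of gene length and over all 11 libraries, the most abundant member was Emg1, a methyltransferase of 18S ribosomal RNA, with a mean of 93.2 normalised reads per kilobase. Emg1 had 124, 72.3 and 72.9 normalised reads in KO polysomal libraries and 72.0 and 140.0 in KO total libraries, against 182, 327 and 156 in WT polysomal libraries and 90.6, 86.0 and 89.0 in WT total libraries. Its highest library was WT polysomal 2, and its KO polysomal libraries all lay below the WT polysomal ones. Imp3 followed at 57.3 per kilobase, Pno1 at 52.1, Utp3 at 49.7 and Wdr36 at 47.5. The least abundant per kilobase was Utp20, a very long protein of helical repeats, at 9.13. Utp20 had 27.2, 51.4 and 30.0 normalised reads in KO polysomal libraries and 124 and 80.2 in KO total libraries, against 57.7, 26.9 and 57.8 in WT polysomal libraries and 144, 144 and 137 in WT total libraries. Here the polysomal libraries of both genotypes lay below the total ones without overlap. Heatr1 at 9.47 and Utp14a at 10.9 per kilobase were the next lowest. Levels per kilobase of the other 26 members lay between these values.

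The members' promoters were searched for short motifs, and any part of these motifs in the levels was not tested. RefSeq promoter windows of GRCm38.p6 (250 bases before to 50 after the start) were found for 29 of the 34 members. The E-box CACGTG, the letters bound by MYC family proteins and their partners, was in the windows of 7 members (24.1%), against 8.09% of 27025 genes. The motif CCGGAAG or its reverse complement, which holds the core that Ets family proteins bind, was in 12 members (41.4%), against 9.93% of the genes. Both strands were searched, the E-box being its own reverse complement, and no stretch printed here holds both motifs. These shares describe letters in a window and show no binding. The 27025 genes are all those with RefSeq windows, whether or not they were measured here, while all members were measured. The shares were not compared with those of measured genes only. The stretches printed are upstream of the start in members described below, with the motif in capitals: the E-boxes of Imp4, a protein of the Mpp10 complex, and Utp18, of the UtpB complex, and the site nearest to the start in Emg1. They are given 5′ to 3′ along each gene's own strand.
Imp4, chr1:34439683-34439738, plus strand: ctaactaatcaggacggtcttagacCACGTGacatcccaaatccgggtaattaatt
Utp18, chr11:93885767-93885811, minus strand: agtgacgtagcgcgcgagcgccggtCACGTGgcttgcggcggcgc
Emg1, chr6:124712191-124712247, minus strand: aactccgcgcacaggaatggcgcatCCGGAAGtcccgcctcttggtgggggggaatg
The motif began 121 bases before the start in Imp4, 20 in Utp18 and 44 in Emg1. Emg1 passed the test of KO over WT in polysomal RNA described below, while Imp4 and Utp18 did not. The other members with an E-box were Nol11, Pno1, Tsr1, Utp20 and Wdr43, and the other members with the Ets letters were Bms1, Ddx47, Dhx37, Heatr1, Mphosph10, Nol10, Pwp2, Tsr1, Utp18, Utp3 and Wdr3.

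In polysomal RNA most small-subunit assembly factors had lower levels in KO than in WT cells, and for 8 of them the difference passed the test. The estimate was negative for 32 of 34 members, with a median log2 fold change of -0.49 and a range of -1.27 to 0.11, beside a median of -0.00 over the 12463 genes tested. With limma's linear model and Benjamini-Hochberg adjustment over all genes, 8 members were lower at an adjusted p under 0.05, where 3.50% of all genes were lower. In this fit each gene's spread was shared over all 4 groups, total libraries included, though the groups can differ in spread. Emg1, for example, had an SD of 29.5 in KO polysomal, 48.1 in KO total, 92.3 in WT polysomal and 2.33 in WT total libraries. The part of the shared spread in the calls was not tested. No member was higher, where 4.82% of all genes were, and none was higher at an unadjusted p under 0.05 (12.5% of all genes). The same held with edgeR (4.62% of all genes) and DESeq2 (7.67%). The KO polysomal libraries lay below the WT polysomal libraries without overlap for 14 members (11.0% of all genes) and above them for 0 (12.6% of all genes). The 8 members came from the UtpB complex (Tbl3), the U3 particle (Rrp9), the helicases (Ddx47), the Nop14 module (Nop14, Noc4l, Emg1) and the late 40S precursor (Rrp12, Pno1).

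Tbl3 is a WD-repeat protein of the UtpB complex. Tbl3 had 47.6, 66.0 and 55.6 normalised reads in KO polysomal libraries and 129.6 and 164 in KO total libraries, against 96.2, 96.0 and 108 in WT polysomal libraries and 112, 114 and 117 in WT total libraries. All KO polysomal libraries were below every other library, and the KO total libraries were above the WT total ones. The log2 fold change of KO over WT in polysomal RNA was -0.83 ± 0.17 (SE, adjusted p = 0.0130). Rrp9, the protein that marks the U3 particle, was the member with the second lowest estimate. Rrp9 had 66.4, 53.4 and 42.6 normalised reads in KO polysomal libraries and 82.8 and 92.9 in KO total libraries, against 91.6, 180.4 and 102 in WT polysomal libraries and 54.6, 60.0 and 48.6 in WT total libraries. WT polysomal library 2 was the highest, and the 3 KO polysomal libraries were near the level of WT total RNA. Its log2 fold change in polysomal RNA was -1.14 ± 0.26 (SE, adjusted p = 0.0197). Ddx47 is a DEAD-box helicase that acts in early cuts of the precursor. Ddx47 had 95.9, 77.5 and 72.2 normalised reads in KO polysomal libraries and 92.9 and 102 in KO total libraries, against 129.9, 143 and 120.2 in WT polysomal libraries and 91.3, 91.4 and 87.3 in WT total libraries. The WT polysomal libraries stood above all others, and the other groups lay between 72.2 and 102. Its log2 fold change in polysomal RNA was -0.68 ± 0.16 (SE, adjusted p = 0.0264).

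The Nop14 module gave 3 of the 8. Nop14 and Noc4l bind each other in the processome, and Emg1 joins Nop14 there. Nop14 had 52.1, 71.5 and 45.3 normalised reads in KO polysomal libraries and 75.4 and 92.2 in KO total libraries, against 92.6, 84.0 and 106 in WT polysomal libraries and 74.5, 81.7 and 77.4 in WT total libraries. Noc4l had 47.6, 52.8 and 59.8 normalised reads in KO polysomal libraries and 63.6 and 58.2 in KO total libraries, against 81.7, 117 and 120.4 in WT polysomal libraries and 76.4, 80.1 and 101 in WT total libraries. For both genes the KO polysomal libraries were below the WT polysomal ones without overlap, and for Noc4l the KO total libraries were below the WT total ones as well. The log2 fold change in polysomal RNA was -0.97 ± 0.20 (SE, adjusted p = 0.0120) for Noc4l and -0.75 ± 0.20 (SE, adjusted p = 0.0361) for Nop14. Emg1, whose levels and upstream stretch are given above, had the lowest estimate of all members, -1.27 ± 0.32 (SE, adjusted p = 0.0341).

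Among the late factors, Rrp12, a repeat protein needed for export of ribosomal precursors in yeast, and Pno1, an RNA-binding protein at the 3′ end of 18S precursors, were lower. Rrp12 had 19.2, 32.7 and 21.5 normalised reads in KO polysomal libraries and 75.2 and 74.4 in KO total libraries, against 52.4, 34.5 and 52.9 in WT polysomal libraries and 71.6, 71.0 and 67.0 in WT total libraries. The KO polysomal libraries of Rrp12 were below all others, while the total libraries of both genotypes lay close together. Pno1 had 92.6, 87.9 and 78.7 normalised reads in KO polysomal libraries and 63.9 and 71.4 in KO total libraries, against 113, 168 and 134 in WT polysomal libraries and 54.9, 61.0 and 55.1 in WT total libraries. For Pno1 the polysomal libraries stood above the total libraries in both genotypes, and the KO polysomal ones lay below the WT polysomal ones. The log2 fold changes of KO over WT in polysomal RNA were -0.91 ± 0.23 (SE, adjusted p = 0.0315) for Rrp12 and -0.66 ± 0.18 (SE, adjusted p = 0.0432) for Pno1.

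**Figure D1:**
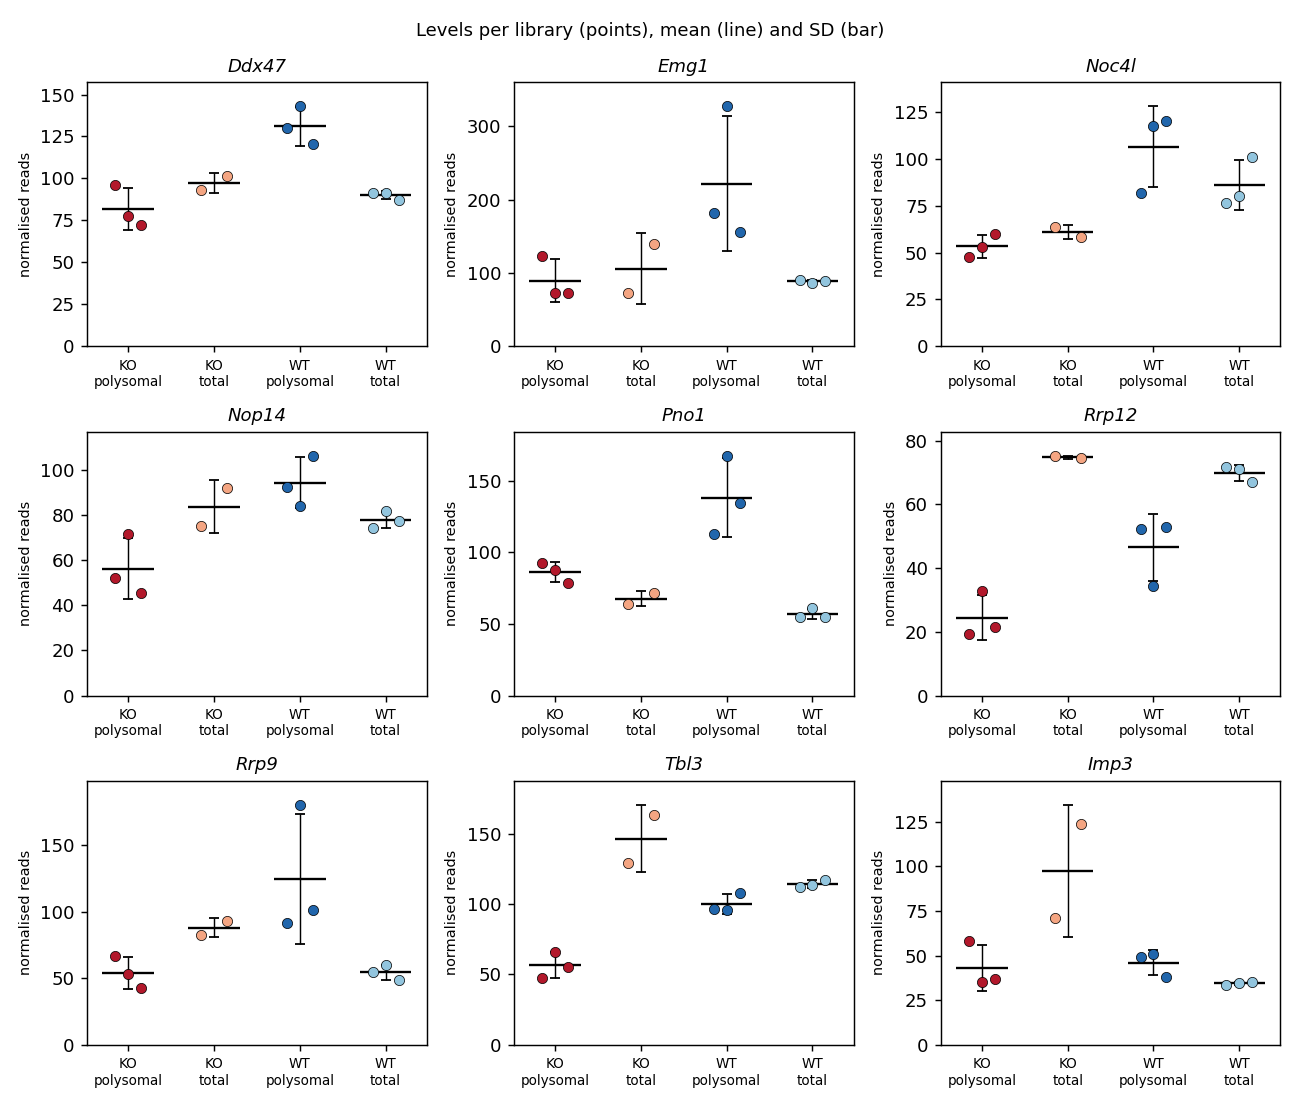
Normalised reads (y axis, linear) in each library for the 8 members lower in KO polysomal RNA and for Imp3. Groups run KO polysomal, KO total, WT polysomal and WT total, points are libraries, the line is the mean and the bar the SD. In the 8 members the KO polysomal points lie below all WT polysomal points, and Imp3 has its 2 highest points in KO total RNA.

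The calls depended on single libraries. The 8 became 5 without KO polysomal library 1, 4 without library 2 and 1 without library 3. They became 14 without WT polysomal library 2 (6.04% of all genes) and 4 without WT polysomal library 3. Without WT total libraries 1, 2 and 3 they became 3, 3 and 4. Total libraries enter this fit only through the shared spread, scale and filter, so those 3 counts do not reflect their levels of the members. Shares of all genes were not computed for the other fits leaving out 1 library. A general loss of calls therefore cannot be told apart from a loss among the members. Noc4l stayed past the threshold whichever library was left out, at an adjusted p of 0.00720 to 0.0494. Against the mean of the WT polysomal libraries, 32, 25 and 33 of 34 members were below in KO polysomal libraries 1 to 3, with medians of -0.67, -0.31 and -0.57 in log2. The mean of the KO polysomal libraries was below WT polysomal libraries 1, 2 and 3 for 32, 21 and 33 members, with medians of -0.63, -0.22 and -0.71. The median difference was thus smallest against WT polysomal library 2. For Emg1, Rrp9, Pno1 and Ddx47, however, library 2 was the highest WT polysomal library. For Tbl3, Nop14 and Rrp12 it was the lowest, and for Noc4l it lay between the others. Between the pair of polysomal libraries with the lowest ribosomal RNA share, KO 3 and WT 3, all 34 members were lower in KO, with a median difference of -0.83 beside 0.00 over all genes. This pair was chosen after its values were seen. In a fit also chosen after seeing the data, without KO polysomal 2 and WT polysomal 2, the libraries with the highest ribosomal RNA share of each genotype, 20 members were lower where 7.88% of all genes were. Of these 20, 5 were among the 8 named above (Rrp12, Nop14, Tbl3, Noc4l and Rrp9), while Emg1, Pno1 and Ddx47 lost their calls. The median of the 34 was -0.78. The lowest of the other 15 were Wdr36 at -1.32, Mphosph10 at -1.26 and Bms1 at -1.24.

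**Figure D2:**
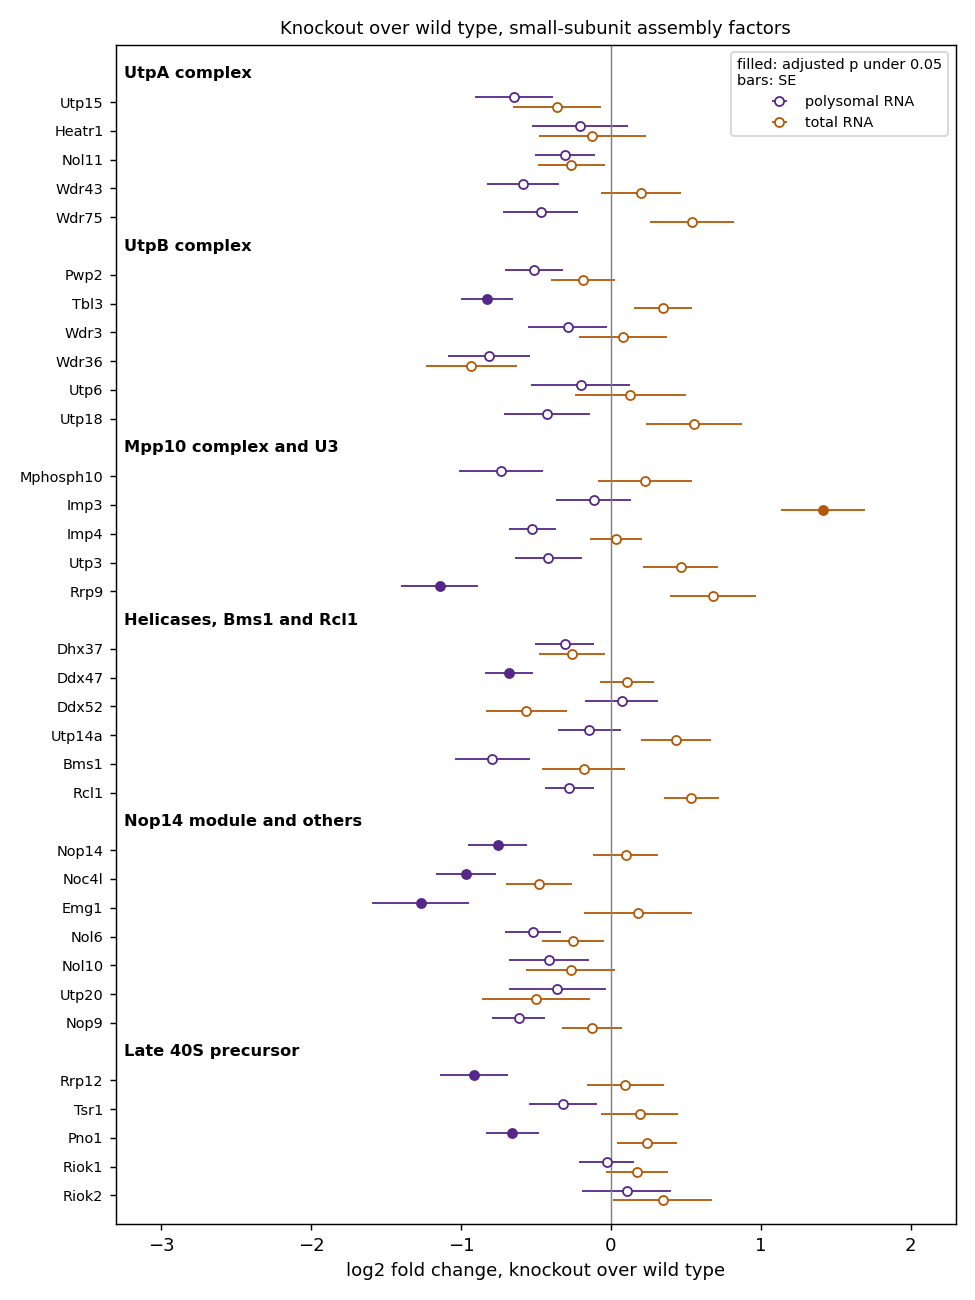
Log2 fold change of KO over WT (x axis) for each member, by role, in polysomal RNA (purple, upper) and total RNA (orange, lower), with SE bars and filled points at an adjusted p under 0.05. In polysomal RNA 32 of 34 estimates are below 0 and 8 are filled, while in total RNA 21 are above 0 and only Imp3 is filled.

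In total RNA the members showed no such common direction. The estimate of KO over WT was positive for 21 and negative for 13 members, with a median of 0.10 and a range of -0.93 to 1.42, beside -0.01 over all genes. By limma 1 member was higher, where 4.73% of all genes were, and 0 were lower, where 5.79% of all genes were. At an unadjusted p under 0.05, 3 members were higher (14.5% of all genes) and 1 was lower (14.9% of all genes). Of lower members, edgeR called 0, where it called 4.81% of all genes, and DESeq2 called 1, where it called 9.57% of all genes. The higher member was Imp3, an RNA-binding protein of the Mpp10 complex that contacts U3. Imp3 had 58.0, 34.9 and 36.7 normalised reads in KO polysomal libraries and 71.2 and 124 in KO total libraries, against 48.9, 51.0 and 38.0 in WT polysomal libraries and 33.8, 34.4 and 35.2 in WT total libraries. Its KO total libraries differed widely from each other, and both were above every WT library. The log2 fold change was 1.42 ± 0.28 (SE, adjusted p = 0.00977). Without KO total library 2 it was 1.02. That fit left 1 KO total library, so it cannot show whether the call rests on library 2. KO total libraries lay above the WT total libraries without overlap for 16 members (31.2% of all genes) and below them for 11 (33.2% of all genes). The members with the lowest estimates were Wdr36, at -0.93 ± 0.31 (SE, adjusted p = 0.0731), and Ddx52, at -0.56 ± 0.27 (SE, adjusted p = 0.191). Without WT polysomal library 2, which enters this fit only through the shared spread, scale and filter, 4 members were higher and 2 lower, where 11.9% and 12.1% of all genes were.

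**Figure D3:**
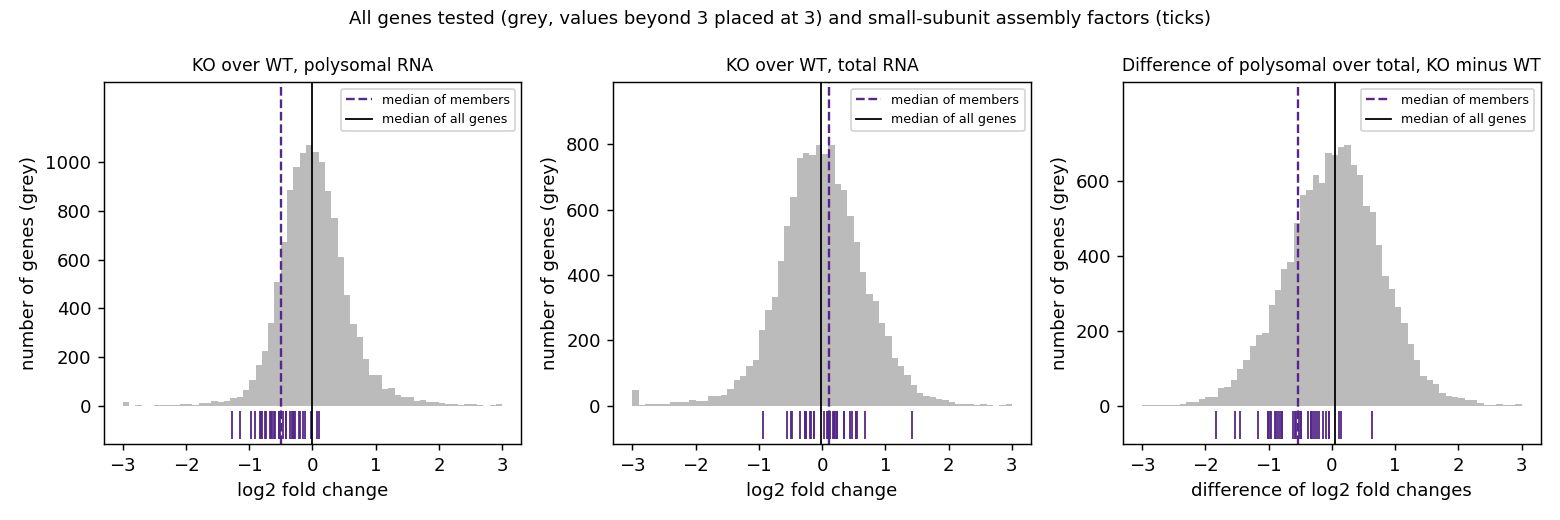
Number of genes (y axis) by log2 fold change (x axis) for KO over WT in polysomal RNA, KO over WT in total RNA, and the KO minus WT difference of polysomal over total RNA. Ticks below the histograms are the 34 members. The dashed line, the members' median, lies at -0.49, 0.10 and -0.54, beside the solid line for all genes at -0.00, -0.01 and 0.05.

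Within KO cells, most members had lower levels in polysomal than in total RNA, and for 2 of them the difference passed the test. The estimate of polysomal over total RNA was negative for 29 of 34 members, with a median log2 fold change of -0.42 and a range of -1.57 to 0.79, beside 0.04 over the 12070 genes tested. By limma 2 members were lower, where 1.85% of all genes were. These were Rrp12 at -1.57 ± 0.27 (SE, adjusted p = 0.0282) and Tbl3 at -1.32 ± 0.24 (SE, adjusted p = 0.0306), whose libraries are given above. No member was higher, where 0.911% of all genes were. At an unadjusted p under 0.05, 1 member was higher (12.1% of all genes) and 13 were lower (10.7% of all genes). Of higher members, edgeR called 0, where it called 0.597% of all genes, and DESeq2 called 1, where it called 4.35% of all genes. The polysomal libraries lay below the total libraries without overlap for 21 members (20.1% of all genes) and above them for Ddx52, Pno1 and Riok1, 3 members (20.3% of all genes). Relative to the mean of the KO total libraries, 29, 30 and 30 members were below in KO polysomal libraries 1 to 3. This comparison shares its polysomal libraries with the KO over WT comparison above, and all comparisons across genotypes use the same libraries, so none is separate evidence for another.

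The number of calls in KO varied with the fit. DESeq2 on the recovered reads called 9 members lower, where it called 6.16% of all genes, and removal of each library's trend on gene length gave 10, where it gave 6.61% of all genes. Without KO polysomal library 1 there were 8 lower members and 1 higher member, and there were 0 lower without KO polysomal library 3 and without either KO total library. With 1 KO total library left, that sample is assumed to vary like the others. For these fits leaving out 1 library, shares of all genes were not computed. A general change in calls cannot be told apart there from a change among the members. The authors' deposited table, at an FDR under 0.05, listed 8 members lower in KO polysomal RNA (Bms1, Imp3, Nol6, Pwp2, Rrp12, Tbl3, Utp20 and Wdr75), where it listed 4.84% of all genes, and 0 higher, where it listed 3.42%.

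In WT cells the members had estimates in both directions. The estimate of polysomal over total RNA was positive for 19 and negative for 15 members, with a median log2 fold change of 0.13 and a range of -1.64 to 1.25, beside -0.02 over the 12380 genes tested. The members' median turned to -0.02 without WT polysomal library 1 and likewise to -0.02 without WT polysomal library 3. By limma 6 members were higher, where 8.89% of all genes were, and 2 were lower, where 13.8% of all genes were. The share of lower members was below that of all genes, and the share of higher members was above it. The higher members were Pno1 at 1.25 ± 0.18 (SE, adjusted p = 0.00512), Emg1 at 1.24 ± 0.25 (SE, adjusted p = 0.0157), Rrp9 at 1.12 ± 0.25 (SE, adjusted p = 0.0202), Rcl1 at 0.72 ± 0.18 (SE, adjusted p = 0.0304), Imp4 at 0.58 ± 0.16 (SE, adjusted p = 0.0388) and Ddx47 at 0.53 ± 0.15 (SE, adjusted p = 0.0416). Rcl1 is a partner of the GTPase Bms1. Rcl1 had 61.0, 60.7 and 59.8 normalised reads in KO polysomal libraries and 64.6 and 64.5 in KO total libraries, against 64.2, 75.3 and 82.0 in WT polysomal libraries and 44.7, 49.6 and 38.9 in WT total libraries. Its KO libraries of both kinds lay between 59.8 and 64.6, above the WT total libraries and close to the lowest WT polysomal library. Imp4, whose promoter stretch is printed above, is a Mpp10 complex protein. Imp4 had 73.8, 65.1 and 71.1 normalised reads in KO polysomal libraries and 66.1 and 71.9 in KO total libraries, against 88.6, 107 and 108 in WT polysomal libraries and 66.6, 65.7 and 69.3 in WT total libraries. The WT polysomal libraries of Imp4 were above all others.

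The lower members in WT were Utp20 at -1.64 ± 0.33 (SE, adjusted p = 0.0142), whose libraries are given above, and Nol6 at -0.85 ± 0.18 (SE, adjusted p = 0.0160). Nol6 is a large nucleolar processome protein. Nol6 had 40.2, 55.3 and 39.3 normalised reads in KO polysomal libraries and 109 and 86.9 in KO total libraries, against 62.0, 58.6 and 72.6 in WT polysomal libraries and 109, 115 and 125 in WT total libraries. Its polysomal libraries were below the total libraries in both genotypes without overlap. In KO the estimate was -1.08 ± 0.25 (SE, adjusted p = 0.0589) for Nol6 and -1.46 ± 0.33 (SE, adjusted p = 0.0543) for Utp20. Over all members, WT polysomal libraries were above the WT total libraries without overlap for 11 members (22.9% of all genes) and below them for 9 (27.2% of all genes).

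WT polysomal library 2 stood apart from the other WT polysomal libraries, with the highest ribosomal RNA share among them (14.4%) and the steepest length trend of all 11 libraries, described below, whose part in the results was not tested. Relative to the mean of the WT total libraries, 21 and 24 members were above in WT polysomal libraries 1 and 3 and 13 in library 2. Without library 2 there were 16 higher and 6 lower members, where 22.6% and 24.6% of all genes were called. Without WT polysomal library 1 there were 3 higher and 2 lower, and without library 3 there were 4 higher and 5 lower. Leaving out any single WT total library gave 1 higher and 0 lower. Shares of all genes were not computed for the fits without library 1, library 3 or a total library. A general change in calls cannot be told apart there from a change among the members. Pno1 stayed past the threshold whichever library was left out, at an adjusted p of 8.26e-05 to 0.0479. The authors' deposited table, at an FDR under 0.05, listed 5 members higher, where it listed 13.0% of all genes, and 3 lower, where it listed 14.3%.

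**Figure D4:**
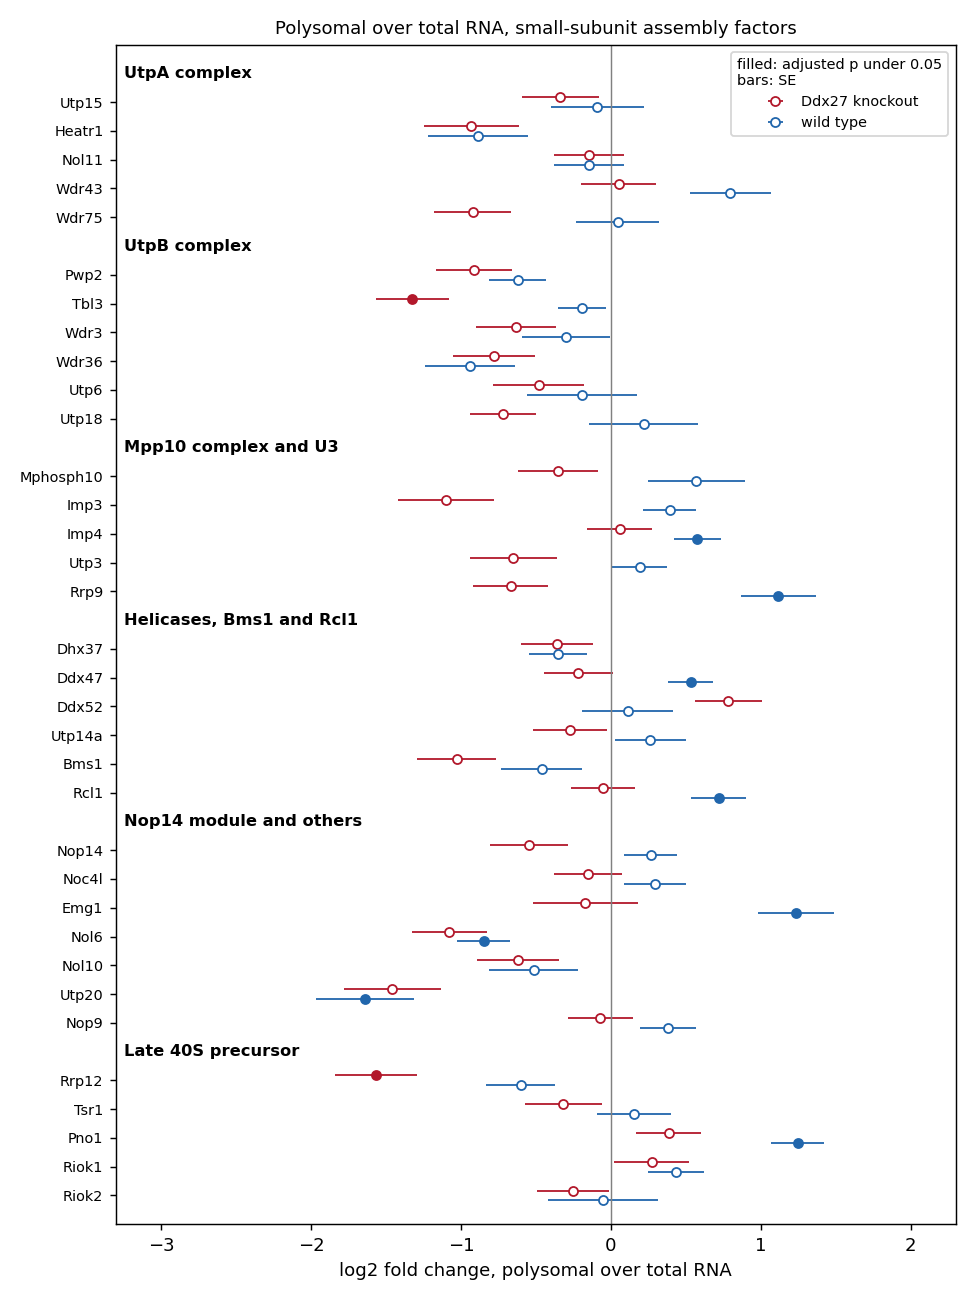
Log2 ratio of polysomal to total RNA (x axis) per member, by role, in KO (red, upper) and WT (blue, lower) cells, with SE bars and filled points at an adjusted p under 0.05. KO estimates are below 0 for 29 of 34 members, with Rrp12 and Tbl3 filled. WT estimates are below 0 for 15, with 6 filled above and 2 filled below 0.

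The difference between these fraction contrasts, KO minus WT, was tested directly with group means over all 11 libraries. It was negative for 31 of 34 members, with a median of -0.54 and a range of -1.83 to 0.63, beside 0.05 over all genes. By limma 0 members passed in either direction, where 0.193% of all genes were higher and 0.0481% lower. At an unadjusted p under 0.05, 14 members were lower (9.72% of all genes) and 0 higher (11.0% of all genes). By edgeR 0 members were called, where 0.175% of all genes were higher and 0.0794% lower. DESeq2 called 7 lower, where it called 3.67% of all genes. The lowest was Rrp9 at -1.83 ± 0.39 (SE, adjusted p = 0.0714) and the highest Ddx52, another DEAD-box helicase, at 0.63 ± 0.36 (SE, adjusted p = 0.321). Ddx52 had 50.7, 54.9 and 57.1 normalised reads in KO polysomal libraries and 33.5 and 30.4 in KO total libraries, against 59.0, 32.9 and 70.2 in WT polysomal libraries and 48.5, 46.3 and 47.9 in WT total libraries. The KO total libraries of Ddx52 were lower than all others but WT polysomal library 2, which lay between them. Next to Rrp9 the lowest were Imp3 at -1.53 ± 0.38 (SE, adjusted p = 0.0910), Emg1 at -1.45 ± 0.49 (SE, adjusted p = 0.150) and Tbl3 at -1.17 ± 0.26 (SE, adjusted p = 0.0716). Without WT polysomal library 2 there were 6 lower members (1.13% of all genes), and without KO polysomal library 1 there were 2. The share of all genes was not computed without KO polysomal library 1. Without both polysomal libraries of the highest ribosomal RNA share, the fit chosen after seeing the data, 8 members were lower, where 0.843% of all genes were: Rrp9, Mphosph10, Wdr75, Rrp12, Utp18, Tbl3, Wdr43 and Nop14. For 5 members (Imp3, Utp3, Rrp9, Rcl1 and Nop14) the polysomal libraries were all below the total libraries in KO and all above them in WT, where 1.09% of all genes did so, and for 0 members the reverse, where 1.55% did so.

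By role, the UtpA complex, which binds the leading end of the precursor first, held 5 measured members. The group's median estimate, in log2, was -0.47 for KO over WT in polysomal RNA, -0.12 for KO over WT in total RNA, -0.34 for polysomal over total RNA in KO and -0.09 for polysomal over total RNA in WT. Wdr43 had the highest estimate of polysomal over total RNA in WT among them. Wdr43 had 107, 154 and 102 normalised reads in KO polysomal libraries and 116 and 119.5 in KO total libraries, against 195, 125 and 234 in WT polysomal libraries and 97.5, 112 and 98.4 in WT total libraries. The KO polysomal libraries overlapped the KO total ones, while in WT the polysomal libraries were all above the total ones. Its estimates of polysomal over total RNA were 0.05 ± 0.25 (SE, adjusted p = 0.925) in KO and 0.80 ± 0.27 (SE, adjusted p = 0.0694) in WT. Wdr75, another WD-repeat protein of the complex, had 52.4, 82.7 and 60.4 normalised reads in KO polysomal and 115 and 137 in KO total libraries, against 113, 60.2 and 103 in WT polysomal and 88.5, 87.0 and 82.5 in WT total libraries, with estimates of -0.92 ± 0.26 (SE, adjusted p = 0.0937) in KO and 0.05 ± 0.28 (SE, adjusted p = 0.915) in WT. Its KO total libraries were the highest of all, and its KO polysomal libraries were all below them. For Heatr1, a long repeat protein, the estimates of polysomal over total RNA were -0.93 ± 0.32 in KO and -0.89 ± 0.33 in WT (SE), and neither passed the test. Utp15 and Nol11 had estimates of -0.34 and -0.15 in KO and -0.09 and -0.15 in WT. In polysomal RNA their estimates of KO over WT were -0.65 ± 0.26 (SE, adjusted p = 0.164) and -0.30 ± 0.20 (SE, adjusted p = 0.404). Cirh1a, the gene now called Utp4 and also a UtpA protein, had estimates of polysomal over total RNA of -0.69 ± 0.23 (SE, adjusted p = 0.135) in KO and -0.24 ± 0.21 (SE, adjusted p = 0.433) in WT, and of KO over WT of -0.31 ± 0.19 (SE, adjusted p = 0.363) in polysomal RNA.

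The UtpB complex, a second early block that binds U3 and the leading part of the precursor, held 6 members, mostly WD-repeat proteins. The group's median estimate, in log2, was -0.47 for KO over WT in polysomal RNA, 0.11 for KO over WT in total RNA, -0.75 for polysomal over total RNA in KO and -0.25 for polysomal over total RNA in WT. In KO all 6 estimates of polysomal over total RNA were negative. Wdr36 had its highest libraries in WT total RNA. Wdr36 had 55.2, 97.4 and 77.1 normalised reads in KO polysomal libraries and 133 and 131 in KO total libraries, against 154, 84.5 and 175 in WT polysomal libraries and 246, 246 and 267 in WT total libraries. The WT total libraries were above all others without overlap. The polysomal over total estimates of Wdr36 were -0.78 ± 0.27 (SE, adjusted p = 0.146) in KO and -0.94 ± 0.30 (SE, adjusted p = 0.0605) in WT. Those of Pwp2, a WD-repeat protein at the core of the complex, were -0.91 ± 0.25 (SE, adjusted p = 0.0930) in KO and -0.62 ± 0.19 (SE, adjusted p = 0.0505) in WT, and those of Utp18 -0.72 ± 0.22 (SE, adjusted p = 0.111) in KO and 0.22 ± 0.36 (SE, adjusted p = 0.678) in WT. Wdr3 had -0.63 in KO and -0.30 in WT, and Utp6 had -0.48 in KO and -0.19 in WT. Neither passed the test in any comparison with all libraries in the fit.

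The Mpp10 complex with U3 (Mphosph10, Imp3, Imp4, Utp3 and Rrp9) held 5 members. The group's median estimate, in log2, was -0.52 for KO over WT in polysomal RNA, 0.47 for KO over WT in total RNA, -0.65 for polysomal over total RNA in KO and 0.57 for polysomal over total RNA in WT. Its median difference, KO minus WT, was -0.96. All 5 members were lower at an unadjusted p under 0.05 (9.72% of all genes), though 0 passed after adjustment by limma. By the same unadjusted rule 1 of 5 UtpA, 2 of 6 UtpB and 2 of 5 late 40S precursor members were lower. So were 2 of 6 members among the helicases with Bms1 and Rcl1, and 2 of 7 in the Nop14 module and others. DESeq2 and edgeR counts over all members are given above. Mphosph10, the scaffold of the complex, had 25.0, 35.4 and 22.4 normalised reads in KO polysomal and 38.6 and 33.1 in KO total libraries, against 59.7, 27.8 and 56.8 in WT polysomal and 28.7, 31.7 and 30.6 in WT total libraries. WT polysomal library 2 was as low as the KO libraries. Its difference was -0.96 ± 0.42 (SE, adjusted p = 0.228). Utp3, which joins the Mpp10 complex in the processome, had 74.2, 62.5 and 53.1 in KO polysomal and 76.6 and 135 in KO total libraries, against 98.5, 75.6 and 79.6 in WT polysomal and 74.7, 74.8 and 70.5 in WT total libraries. KO total library 2 was the highest of all and the KO polysomal libraries were below both the KO total and the WT polysomal libraries. The difference for Utp3 was -0.88 ± 0.33 (SE, adjusted p = 0.185). That of Imp4 was -0.56 ± 0.23 (SE, adjusted p = 0.207), and its estimate of KO over WT in polysomal RNA was -0.52 ± 0.15 (SE, adjusted p = 0.0607).

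The helicases, their partner Utp14a and the GTPase pair Bms1 and Rcl1 made up 6 members. The group's median estimate, in log2, was -0.29 for KO over WT in polysomal RNA, -0.04 for KO over WT in total RNA, -0.24 for polysomal over total RNA in KO and 0.19 for polysomal over total RNA in WT. Bms1 had 42.9, 58.1 and 34.1 normalised reads in KO polysomal and 90.9 and 96.0 in KO total libraries, against 104, 53.8 and 81.1 in WT polysomal and 106, 110.0 and 102 in WT total libraries. The 3 KO polysomal libraries and WT polysomal library 2 were the lowest. Its polysomal over total estimates were -1.03 ± 0.26 (SE, adjusted p = 0.0782) in KO and -0.46 ± 0.27 (SE, adjusted p = 0.241) in WT. Rcl1, its partner, had -0.05 ± 0.21 (SE, adjusted p = 0.909) in KO, against 0.72 in WT. Dhx37, the DEAH-box helicase that strips U3 off the precursor in yeast, had estimates of -0.36 in KO and -0.35 in WT, and Utp14a, which activates that helicase in yeast, had -0.27 in KO and 0.26 in WT. Ddx52 had the highest polysomal over total estimate in KO, 0.79 ± 0.22 (SE, adjusted p = 0.0955), against 0.11 ± 0.31 (SE, adjusted p = 0.806) in WT.

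The Nop14 module and other processome proteins held 7 members. The group's median estimate, in log2, was -0.61 for KO over WT in polysomal RNA, -0.25 for KO over WT in total RNA, -0.55 for polysomal over total RNA in KO and 0.27 for polysomal over total RNA in WT. Nol10, a nucleolar protein of the processome, had polysomal over total estimates of -0.62 ± 0.27 (SE, adjusted p = 0.221) in KO and -0.52 ± 0.29 (SE, adjusted p = 0.228) in WT. Nop9, an RNA-binding repeat protein, had 61.0, 63.5 and 66.5 normalised reads in KO polysomal and 71.4 and 66.0 in KO total libraries, against 76.7, 113 and 108 in WT polysomal and 79.4, 71.5 and 74.0 in WT total libraries. All KO polysomal libraries were below the WT polysomal ones, and the estimate of KO over WT was -0.61 ± 0.18 (SE, adjusted p = 0.0561) in polysomal RNA. The late 40S precursor factors held 5 members. The group's median estimate, in log2, was -0.32 for KO over WT in polysomal RNA, 0.19 for KO over WT in total RNA, -0.25 for polysomal over total RNA in KO and 0.16 for polysomal over total RNA in WT. Tsr1, a GTPase-like protein on the 40S precursor, had KO over WT estimates of -0.32 ± 0.23 (SE, adjusted p = 0.446) in polysomal and 0.19 ± 0.26 (SE, adjusted p = 0.637) in total RNA. The kinases Riok1 and Riok2, which act on the last 40S precursors in the cytoplasm, were among the members closest to 0 in polysomal RNA, with KO over WT estimates of -0.03 ± 0.19 (SE, adjusted p = 0.951) and 0.11 ± 0.30 (SE, adjusted p = 0.873). Riok1 had 32.1, 45.9 and 33.7 normalised reads in KO polysomal and 31.1 and 31.1 in KO total libraries, against 36.1, 34.8 and 42.0 in WT polysomal and 27.9, 30.0 and 24.7 in WT total libraries, so polysomal libraries were above total ones in both genotypes. Riok2 spanned 19.5 to 49.7 over all libraries, with its lowest value in WT polysomal library 2.

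Member length moved with the fraction contrasts. Across the 34 genes, Pearson's r between log2 gene length and the polysomal over total estimate was -0.36 in KO and -0.68 in WT (Spearman's rho -0.47 and -0.71). In WT the short Emg1 (1377 bases) and Pno1 (1711 bases) were the highest, and the longest member, Utp20 (8769 bases), was the lowest. Others departed from this order: Wdr36, at 3188 bases, had the next lowest estimate, -0.94, while Tbl3, at 5973 bases, and Nol11, at 5505 bases, had -0.19 and -0.15. These correlations are a description over genes that share the same libraries, and genes are not independent replicates. For KO over WT in polysomal RNA r was 0.12, in total RNA -0.49, and for the difference of the contrasts 0.49. The libraries themselves had length trends over all genes, of -0.166, 0.186 and 0.114 log2 units per doubling of length in KO polysomal libraries 1 to 3, 0.122 and -0.122 in KO total libraries 1 and 2, and -0.241, -0.571 and -0.142 in WT polysomal libraries 1 to 3. With each library's trend removed, 12 members were lower in KO over WT polysomal RNA, where 5.39% of all genes were, and Rcl1 and Imp4 lost their calls in WT, at adjusted p-values of 0.144 and 0.0696. Members had a median length of 3508 bases, against 3440.5 for all genes.

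**Figure D5:**
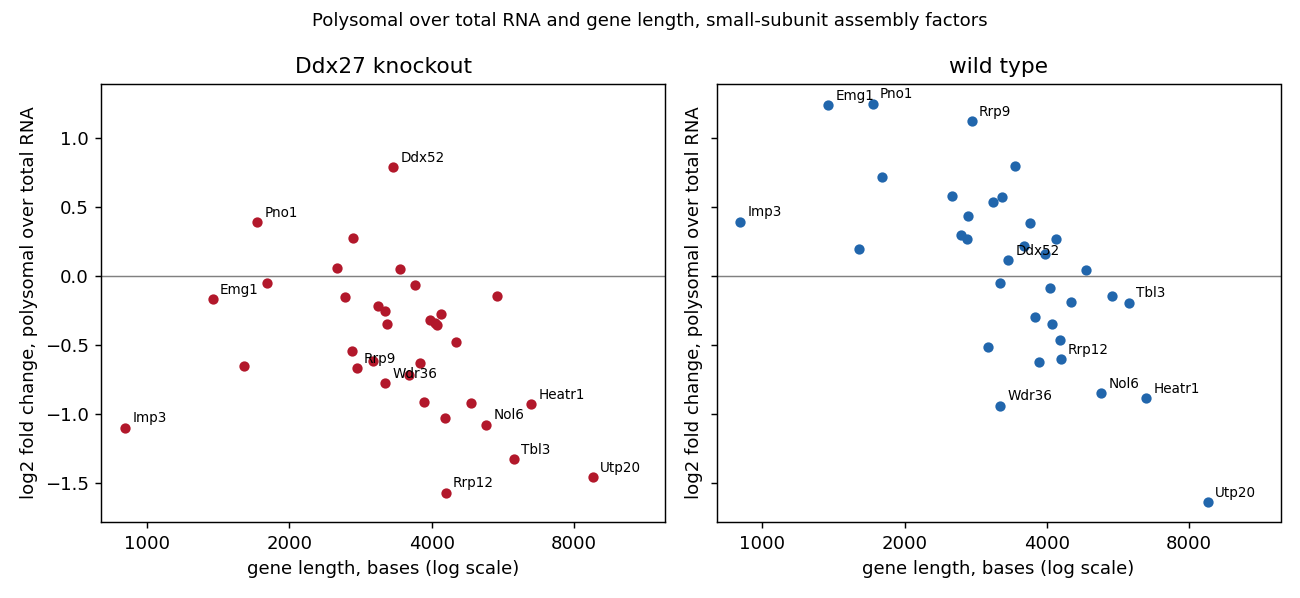
Log2 ratio of polysomal to total RNA (y axis) against gene length in bases (x axis, log scale) for the 34 members in KO (left) and WT (right) cells. Points are genes, with some named. Longer members tend to lower values in KO (r = -0.36) and in WT (r = -0.68), and Imp3, the shortest, lies low in KO.

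Other assembly genes, from lists made with earlier results of these data known, were measured in the same fits. For KO over WT in polysomal RNA, 41 of 42 other small-subunit assembly genes (Cirh1a among them) and 47 of 49 large-subunit assembly genes were negative. Their medians were -0.50 and -0.48, and limma called 3 and 10 lower, where 3.50% of all genes were. No gene of either list was higher by limma, edgeR or DESeq2, or at an unadjusted p under 0.05. In total RNA the medians were 0.29 and 0.23. By limma 1 other small-subunit and 3 large-subunit genes were higher (4.73% of all genes) and 0 of either list lower (5.79%). DESeq2 called 8 and 9 higher (9.94% of all genes) and 2 and 0 lower (9.57%). For polysomal over total RNA in KO the medians were -0.30 and -0.40, and 0 genes of either list passed by limma or edgeR. Unadjusted, 8 and 11 were lower (10.7% of all genes), and DESeq2 called 4 and 6 lower (6.16%). In WT the medians were 0.50 and 0.38. There limma called 13 and 14 genes higher (8.89% of all genes) and 1 and 2 lower (13.8%). In the difference, the medians were -0.75 and -0.66, and 0 genes of either list passed by limma or edgeR. Unadjusted, 21 and 24 were lower (9.72% of all genes), and DESeq2 called 9 and 18 lower (3.67%). Of the other small-subunit genes in WT, the highest was Lyar at 1.40 ± 0.16 (SE, adjusted p = 0.00281) and the only lower gene was Mybbp1a at -0.78 ± 0.18 (SE, adjusted p = 0.0233).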

How the data were processed

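RNA sequencing values for 11 libraries came from a complete table per genotype. The tools were STAR, HTSeq and edgeR with build mm10, per the submitters' processing notes. Their versions and roles are not given in the sources used here. The authors' deposited signal columns are normalised read counts. In each library all values are whole multiples of what 1 read is worth (100.0% within 0.001 reads), so read counts were recovered from the deposited values. Each table was scaled separately, and its totals are not those of plain CPM, which the planned design assumed. The tables also give gene length as an other, unscaled column, the authors' log2 fold change and log2 mean level, and the authors' FDR, an adjusted p-value. Knockout columns match the labels by group, not by sample number, so their library numbers are those of the columns.

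Within a genotype the deposited values were fitted as they are. Across genotypes, and for every level printed, values were rescaled to a common scale (median of ratios over 12590 shared genes). Genes reaching 1 in 3 or more fitted libraries were tested on log2(value + 1) with limma 3.58.1 (trend; R 4.3.3), across all genes, Benjamini-Hochberg adjusted p-values and a threshold of 0.05. The pseudocount understates changes of low genes. Of the 5 comparisons, those between genotypes and the difference used 4 group means over 11 libraries. The script was tested on simulated data. Alternatives were edgeR 4.0.16 and DESeq2 1.42.0 on recovered read counts, a pseudocount of 0.25, no filter, other scaling, removal of each library's length trend, the replicate number as a block, and leaving out libraries. For most fits leaving out 1 library, shares of all genes were not computed. A value of 0 allows up to 3 reads for counting error only, which is 0.0989 to 0.257 in the deposited values, before the common scale. Same-numbered WT polysomal and total libraries did not deviate together, which cannot decide whether they came from the same culture. Promoter windows came from RefSeq.

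Every member was named, with values in each library for members past the threshold (in WT polysomal over total RNA at most 4 per direction), the highest and lowest where none passed, and the highest and lowest per kilobase. Other members were shown by library after their values were seen. The members and lists were chosen with earlier results of these data known. Of 34 member IDs, 33 matched the name table.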

Additional observations from a re-analysis of the deposited data

Results flagged for a closer look

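In 5 members the polysomal libraries were all below the total libraries in KO and all above them in WT. Of these contrasts, those of Rrp9 and Rcl1 in WT passed the test, and none in KO did. The KO minus WT difference of polysomal over total RNA was -1.53 ± 0.38 for Imp3 (adjusted p = 0.0910), -0.88 ± 0.33 for Utp3 (adjusted p = 0.185), -1.83 ± 0.39 for Rrp9 (adjusted p = 0.0714), -0.81 ± 0.25 for Rcl1 (adjusted p = 0.128) and -0.85 ± 0.29 for Nop14 (adjusted p = 0.155), in log2 with SE, by limma. In none of the 5 did this tested difference pass the threshold of 0.05. They are 5 of 34 members, where 1.09% of all genes showed this pattern. For Imp3 the KO total libraries, 71.2 and 124 normalised reads, differed between themselves by more than the other groups did. The part of single libraries in this pattern was not tested beyond the fits that leave each one out.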

How the results depend on the processing

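For the called genes and the extremes of the difference, no estimate changed sign under the alternatives run. The members' median changed sign in 1 comparison, polysomal over total RNA in WT, where it was 0.13 with all libraries and -0.02 without WT polysomal library 1 or 3. Leaving out 1 library at a time gave 1 to 16 higher and 0 to 6 lower members for polysomal over total RNA in WT, 0 to 1 higher and 0 to 8 lower in KO, 0 to 4 higher and 0 to 2 lower for KO over WT in total RNA, 1 to 14 lower in polysomal RNA, and 0 to 6 lower in the difference. Among called genes and the extremes of the difference, 73 of 179 such fits fell short of the threshold, 104 kept their side and 2 passed it newly. Most of the fits leaving out 1 library have no share of all genes, so general changes in calls cannot be told apart from changes among the members. DESeq2 gave 4 lower members in WT (16.9% of all genes), 1 higher (4.35%) and 9 lower (6.16%) in KO, 2 higher (9.94%) and 1 lower (9.57%) for KO over WT in total RNA, and 7 lower (3.67%) in the difference. Removal of the length trend gave 1 higher (5.48%) and 10 lower (6.61%) in KO and 2 lower (0.345%) in the difference. The fit without KO polysomal 2 and WT polysomal 2, chosen after seeing the data, gave 16 higher (22.6%) and 6 lower (24.6%) in WT, 5 higher (13.1%) and 2 lower (13.5%) for KO over WT in total RNA, 20 lower (7.88%) in polysomal RNA and 8 lower (0.843%) in the difference. The causes were not tested. Fits with fewer libraries also have fewer degrees of freedom. With the replicate number as a block, WT had 3 higher members and 2 lower, where 703 and 1243 of 12380 genes were called. Rcl1, Imp4 and Ddx47 lost their calls there. In the difference 0 members were called, but so were 0 of 12463 genes in either direction. That fit therefore cannot set the members apart from other genes in the difference. Deviations of same-numbered WT polysomal and total libraries correlated at 0.21, -0.22 and -0.07. With 3 libraries per fraction, these values cannot decide whether same-numbered libraries came from the same culture. The KO columns carry no number of the labels. In KO over WT polysomal RNA, edgeR gave 7 lower members (3.23% of all genes), with Nop14 at an adjusted p of 0.0520, and DESeq2 12 (6.52%). Rrp9 passed in the difference with DESeq2 (-1.89, adjusted p = 0.00125), without the length trend (-1.75, adjusted p = 0.0446) and in the fit chosen after seeing the data (-1.53, adjusted p = 0.0397).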
